A study of Homo sapiens with 41 samples.

Results

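The genes described here encode the subunits of the proteasome, the cell's main protease for unneeded and damaged proteins. They were taken as the protein-coding genes whose symbols begin with PSMA, PSMB, PSMC or PSMD followed by a number in the RefSeq annotation of GRCh38.p14, on chromosomes 1 to 22 and X. This rule found 40 of 19974 protein-coding genes, and 1 of them, PSMC3IP, encodes a cofactor of meiotic recombination and not a subunit. It was kept and is described apart. Where RNA polymerase II (Pol II), the enzyme that transcribes these genes, and the chromatin proteins CTCF and RAD21 were found at them was measured by chromatin immunoprecipitation and sequencing (ChIP-seq), in cells without and with hyperosmotic stress.

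The proteasome has a barrel-shaped core particle, the 20S, and a cap, the 19S. In the core, outer rings of alpha subunits (PSMA genes) gate the entrance and inner rings of beta subunits (PSMB genes) hold the catalytic sites. In the cap, ATPases (PSMC genes) unfold substrates and thread them into the core, while non-ATPase subunits (PSMD genes) bind ubiquitin, remove it and hold the particle together. The genes are transcribed in all cell types, apart from a few beta and alpha subunits that replace the usual ones in immune cells, thymus or testis. CTCF binds a long DNA motif, often near promoters, and RAD21 is a subunit of cohesin, the ring complex that holds chromatin loops and gathers at CTCF sites.

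All libraries came from T47D, a luminal breast carcinoma cell line, so each group stands for 1 line. The stress was 110 mM NaCl added to the medium in the sample titles, while the text on the whole series gives a different concentration. Pol II was measured without stress and after 1 h of NaCl, with 2 libraries each. CTCF was measured without stress and after 1 h with 3 libraries each, after 7.5 min with 2, and after 30 min and after 1 h of NaCl followed by 1 h in isotonic medium (recovery) with 1 each. RAD21 was measured without stress, after 1 h and after recovery, with 3 libraries each. By the titles, the cells of 1 library of each of CTCF and RAD21 per condition (no stress, 1 h, recovery) were given triptolide, at 500 nM where the labels give a dose, which blocks the start of transcription. The titles call it a pre-treatment for CTCF without stress and for the CTCF and RAD21 recovery libraries, and give no order for the rest. A second set of 12 libraries, with no replicate number in the title, holds these 6 triptolide libraries, the CTCF recovery library without it and replicate 3 of each group of 3 libraries. In 6 of the 12 the treatment tag contradicts the title. The 4 triptolide libraries without stress and after 1 h carry a tag that names no drug, and the CTCF recovery library and RAD21 recovery replicate 3, whose titles name no drug, are tagged with it. Titles were followed, and which label is right was not tested. Nothing in the labels says whether replicates came from separate cultures, and the p-values below rest on the spread among these libraries, technical or not.

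Each of the 29 libraries was deposited as a list of peaks or regions with no read counts, so the depth of each library is unknown. The Pol II lists held 105302 and 88046 regions without stress and 107396 and 216968 after 1 h, covering 292, 257, 212 and 262 Mb. The deposited -log10 q of a region lay under 1.3 for 50.0 and 48.5% of the regions without stress and for 80.0 and 92.4% after 1 h. Of the regions over the proteasome genes, 61.5 and 52.8% lay under 1.3 without stress and 80.7 and 90.1% after 1 h. Many regions were thus weakly supported in the unstressed libraries too, and more in the stressed ones. CTCF lists held 20678 to 59843 peaks and RAD21 lists 3344 to 40969. Of 12 luminal markers, 9 were covered by Pol II over at least 20% of their span in both unstressed libraries, and KRT18 and SPDEF were at 0 in both. A coverage of 0 in these lists is therefore no sign that a gene lacks Pol II. The median coverage of 6 haematopoietic marker genes was 5.0 and 11.9% without stress and 21.4 and 65.1% after 1 h, and what part this had in the results was not tested.

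Whether Pol II occupied less of the proteasome genes after 1 h of NaCl was asked first. The percent of a gene's span that lay inside deposited Pol II regions was taken as its coverage. The median over the 40 genes was 47.4 and 47.2% without stress and 2.5 and 7.8% after 1 h. Over all 19974 protein-coding genes the medians were 10.4 and 9.2% without stress and 2.9 and 7.3% after 1 h. The members thus started from a higher coverage than the median gene and ended close to it. The median difference, 1 h minus no stress, was -20.5 percentage points for the members and -1.6 for all genes.

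A moderated linear model, limma, was fitted over the 13841 genes with a mean coverage of at least 5%, and its p-values were adjusted over all of them by the Benjamini-Hochberg method. Of the 33 members in that fit, 10 fell at an adjusted p under 0.05, which is 30.3% beside a background of 14.2% of all genes fitted, and 0 rose (background 3.04%). At an unadjusted p under 0.05, limma had 12 members lower (36.4%, background 27.8%) and 0 higher (background 7.38%). The 10 were PSMA3, PSMA5, PSMB1, PSMC4, PSMC6, PSMD2, PSMD5, PSMD6, PSMD11 and PSMD12, which belong to the core, the cap ATPases, the cap non-ATPases and, for PSMD5, the assembly chaperones. By the plainer rule that both 1 h values lay below both unstressed values with means at least 10 percentage points apart, 20 of 40 members were lower (50.0%, background 29.3%) and 0 higher (background 8.98%). Over all genes the fit had 1961 lower and 421 higher. When each library was first centred on its own median, it had 1301 lower and 1582 higher over all genes, and 7 members lower (21.2%, background 9.40%). With only regions of a deposited -log10 q of at least 1.3, 4 of 21 members fitted passed, PSMC6 and PSMD2 of the 10 together with PSMC5 and PSMD4. That share of 4 in 21 was close to the background of 18.9% in the same fit, so the members did not stand above all genes there. PSMA3 and PSMB1 then lay under the coverage minimum. With either unstressed library left out, 0 members and 0 of all genes passed, and 19 members (57.6%) were lower at an unadjusted p under 0.05 in each case, beside 29.1% of all genes without replicate 1 and 31.3% without replicate 2.

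**Figure D1:**
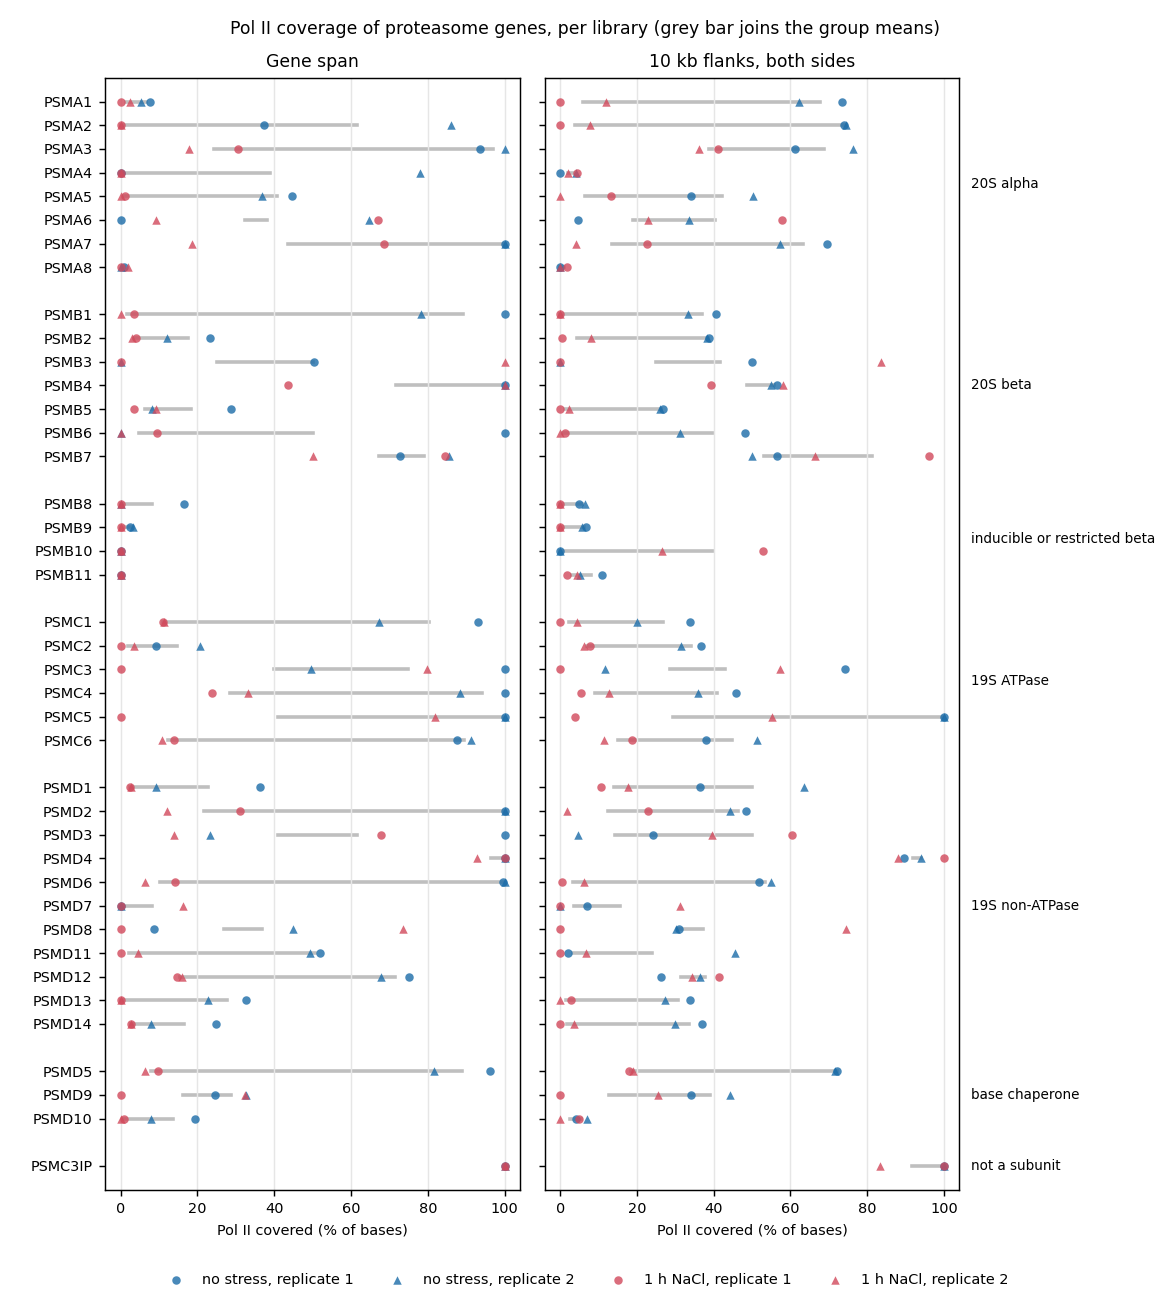
Percent of bases inside deposited Pol II regions for each of the 40 genes (rows, grouped by subunit class), in the gene span (left) and in the 10 kb past each end, both sides summed (right). Blue points are unstressed libraries and red points 1 h of NaCl, with circles for replicate 1 and triangles for replicate 2, and grey bars join the 2 group means. The red points of PSMD6, PSMC6 and PSMD5 sit at or under 14.2% of the span, while their blue points sit at or above 81.6%.

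Among the alpha subunits of the core, PSMA3 and PSMA5 fell. PSMA3 (chromosome 14, 58244843 to 58272004) was covered over 93.7 and 100.0% of its span without stress and over 30.6 and 17.9% after 1 h. Its difference was -72.6 percentage points (SE 6.5, limma adjusted p = 0.0226). PSMA5 (chromosome 1, 109399042 to 109426448) had 44.6 and 36.7% without stress against 1.1 and 0.0%, a difference of -40.1 points (SE 5.2, limma adjusted p = 0.0366). In both genes the stressed libraries lay well below the unstressed ones. PSMA2 had 37.3 and 86.0% without stress and 0.0% in both stressed libraries, but its unstressed libraries lay so far apart that the fit gave an adjusted p of 0.162 in limma. PSMA7 had 100.0% in both unstressed libraries and 68.7 and 18.5% after 1 h (limma adjusted p = 0.185). The values of PSMA4 (0.0 and 77.9% against 0.0 and 0.0%) and PSMA6 (0.0 and 64.6% against 67.0 and 9.2%) overlapped between the groups. The replicates of each of these genes disagreed by more than 50 percentage points in at least 1 group, as those of 10 of the 40 members did. PSMA1 was covered over no more than 7.7% of its span, which at 138.79 kb is the longest of the members, and PSMA8, the testis form of an alpha subunit, read 0.8 and 0.0% without stress and 0.0 and 1.8% after 1 h.

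Of the 7 constitutive beta subunits, PSMB1 was the only member that passed the limma test on the span. PSMB1 (chromosome 6, 170535120 to 170553307) had 100.0 and 78.2% without stress and 3.4 and 0.0% after 1 h, a difference of -87.4 points (SE 10.2, limma adjusted p = 0.0316). PSMB5, PSMB6 and PSMB7 carry the catalytic threonines of the core. None of the 3 passed. PSMB5 was covered over 28.8 and 8.1% of its span without stress and over 3.5 and 9.3% after 1 h. PSMB6, only 2.33 kb long, read 100.0 and 0.0% without stress and 9.5 and 0.0% after 1 h. PSMB7 had 72.8 and 85.4% against 84.6 and 50.0%. The groups of all 3 catalytic genes overlapped. PSMB4 kept 43.7 and 100.0% after 1 h from 100.0% in both unstressed libraries, and PSMB3 read 50.3 and 0.0% against 0.0 and 100.0%. Of the 6 members under 5 kb, PSMB6 had the largest gap between replicates, from none to all of its span.

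PSMB8, PSMB9 and PSMB10 are the interferon-inducible beta subunits that take the place of the catalytic ones in the immunoproteasome, and PSMB11 is the thymus form. These 4 genes had little or no Pol II coverage in T47D cells. PSMB8 read 16.4 and 0.0% without stress and 0.0% in both stressed libraries. PSMB9 read 2.5 and 3.1% without stress and 0.0% in both libraries after 1 h. PSMB10 and PSMB11 were at 0.0% in all 4 libraries. All 4 fell short of the minimum coverage for the fit and were not tested on the span.

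The ATPases of the cap had the largest median difference of any subunit class, -62.3 points over 6 genes, and 2 of the 6 passed the test. PSMC6 (chromosome 14, 52707200 to 52728590) had 87.6 and 91.3% without stress and 14.0 and 10.7% after 1 h, a difference of -77.1 points (SE 4.5, limma adjusted p = 0.0109). PSMC4 (chromosome 19, 39971165 to 39981764) had 100.0 and 88.5% against 23.9 and 33.3%, a difference of -65.7 points (SE 6.8, limma adjusted p = 0.0269). The widest stressed regions over PSMC4, 1.4 and 4.2 kb, spanned the first base of the gene with deposited fold enrichments of 2.72 and 4.01, while the unstressed ones, 18.5 and 10.2 kb, had 1.55 and 1.15. When only regions with a -log10 q of at least 1.3 were counted, the difference of PSMC4 was 5.3 points with an adjusted p of 0.843 in limma, so its fall rests on weakly supported regions of the unstressed libraries. PSMC1 fell just short of the threshold, with 93.2 and 67.4% against 10.9 and 11.2% (limma adjusted p = 0.0545). PSMC5 had 100.0% in both unstressed libraries, and 0.0 and 82.0% after 1 h. PSMC3 overlapped between groups with 100.0 and 49.7% against 0.0 and 79.8%, and PSMC2 read 9.1 and 20.6% against 0.0 and 3.5%.

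The non-ATPase subunits held 4 of the 10 members called. PSMD6 (chromosome 3, 64010551 to 64024007), a cap subunit of the lid, had the largest fall of all members, from 99.6 and 100.0% to 14.2 and 6.3%. The difference was -89.5 points (SE 4.8, limma adjusted p = 0.00961). PSMD2 (chromosome 3, 184299241 to 184309050), a large scaffold subunit that binds ubiquitin-like proteins, went from 100.0% in both libraries to 31.2 and 12.1%, a difference of -78.3 points (SE 8.4, limma adjusted p = 0.0283). Both genes were nearly or fully inside Pol II regions in each unstressed library. PSMD12 (chromosome 17, 67337916 to 67366577) had 75.2 and 67.8% against 14.7 and 16.1%, a difference of -56.1 points (SE 5.6, limma adjusted p = 0.0257). PSMD11 (chromosome 17, 32444510 to 32483319) had 52.0 and 49.4% against 0.0 and 4.5%, a difference of -48.4 points (SE 5.1, limma adjusted p = 0.0278). The close agreement of the unstressed PSMD11 values was not one of place, since only 19.6% of the span was covered in both unstressed lists. With only regions of -log10 q of at least 1.3, PSMD6, PSMD11 and PSMD12 each had an adjusted p of 0.409 in limma, while PSMD2 had -100.0 points and an adjusted p of 9.77e-06. A difference of -100.0 leaves no spread within either group, so that p-value rests on the spread of other genes in the fit.

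PSMD4, the ubiquitin receptor of the cap, was the subunit gene that stayed most covered. It read 100.0% in both unstressed libraries and 100.0 and 92.8% after 1 h. The widest stressed regions over PSMD4 had deposited fold enrichments of 1.06 and 1.07, against 1.63 and 3.08 without stress. Counting only regions with a -log10 q of at least 1.3, its span difference was -100.0 points (limma adjusted p = 9.77e-06), so whether PSMD4 kept its Pol II depended on that threshold. As for PSMD2, no spread within the groups lies behind that p-value. PSMD13 read 32.6 and 22.8% against 0.0% in both stressed libraries, just beyond the threshold (limma adjusted p = 0.06). PSMD1 read 36.3 and 9.1% against 2.4 and 2.6%, and PSMD14, the deubiquitinase of the lid, 24.8 and 8.0% against 2.6 and 2.7%. The groups of PSMD3 (100.0 and 23.2% against 67.9 and 13.9%) and PSMD8 (8.6 and 44.9% against 0.0 and 73.6%) overlapped. PSMD7 was covered in 1 stressed library alone, over 16.3% of its span.

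PSMD5, PSMD9 and PSMD10 carry PSMD symbols but encode chaperones that help to assemble the base of the cap and leave before it is finished. PSMD5 (chromosome 9, 120816053 to 120842922) fell, from 96.2 and 81.6% to 9.6 and 6.4%, a difference of -80.9 points (SE 7.5, limma adjusted p = 0.0233). The widest unstressed regions over PSMD5 were weakly supported. Their deposited fold enrichments were 1.05 and 1.03 and their -log10 q 0.21 and 0.09. PSMD10 had 19.3 and 7.9% against 0.9 and 0.0%, and PSMD9 24.7 and 32.6% against 0.0 and 32.3%. PSMC3IP was covered over 100.0% of its span in all 4 libraries and overlaps the gene MLX, whose regions cannot be told apart from its own.

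Bases covered in both replicates of a group gave a stricter reading of the same lists. Of the 40 members, 30 had some of their span covered in both unstressed lists (background 62.1%) and 14 in both stressed lists (background 40.3%). The share of the span covered in both was lower after 1 h in 29 members (72.5%, background 52.3%) and higher in 1 (2.50%, background 16.6%), PSMA6, where it was 0.0% without stress and 0.8% after 1 h. The median of this share was 13.0% without stress and 0.0% after 1 h. PSMD6 went from 99.6 to 0.0%, PSMD5 from 77.9 to 0.0% and PSMC6 from 78.9 to 0.0%, so the stressed regions of these 3 genes lay in different places in the 2 replicates. PSMC5 went from 100.0 to 0.0%, with no region at all in replicate 1 after 1 h. Shared bases stayed above 40% of the span in PSMD4 (92.8%), PSMB4 (43.7%) and PSMB7 (42.9%), beside PSMC3IP.

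The 10 kb past each end of the genes, both sides summed, were read in the same way. Of 35 members in the fit over 14837 genes, 7 fell (20.0%, background 12.7%) and 0 rose (background 2.37%). At an unadjusted p under 0.05, limma had 20 lower (57.1%, background 31.5%) and 2 higher (5.71%, background 6.42%). The 7 were PSMA1, PSMA2, PSMB1, PSMB2, PSMD5, PSMD6 and PSMD14, and 3 of them, PSMB1, PSMD5 and PSMD6, had also fallen over the span. By the rule of groups that do not overlap with means at least 10 points apart, 21 members were lower (52.5%, background 34.3%) and 3 higher (7.50%, background 9.58%). Over all genes, 1881 were lower and 351 higher, and with each library centred on its median 284 were lower and 1116 higher, with 1 member, PSMA2, among the lower (2.86%, background 1.91%). With any 1 of the 4 libraries left out, 0 members and 0 of all genes passed, and 12 to 17 members (34.3 to 48.6%) were lower at an unadjusted p under 0.05, beside 23.5 to 28.2% of all genes.

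Of the 7 called on the flanks, PSMA2 had the largest fall, from 73.9 and 74.4% to 0.0 and 7.9%, a difference of -70.2 points (SE 8.4, limma adjusted p = 0.0425). The flanks of PSMA1 went from 73.3 and 62.2% to 0.0 and 11.9% (difference -61.7, SE 9.7, limma adjusted p = 0.0425). Both genes share an end with a neighbour, as 14 of the 40 members do within 1 kb, and the flanks or span of 35 members hold another protein-coding gene. PSMD5 had 72.2 and 71.7% against 18.0 and 18.9% (difference -53.5, SE 8.0, limma adjusted p = 0.0425). PSMD6 had 51.8 and 54.8% against 0.5 and 6.1% (difference -50.0, SE 7.4, limma adjusted p = 0.0425). PSMB1 had 40.6 and 33.4% against 0.0% in both stressed libraries (difference -37.0, SE 6.3, limma adjusted p = 0.0439). In these 5 genes the highest stressed value was 18.9% and the lowest unstressed value 33.4%. PSMB2 had 38.7 and 38.3% against 0.6 and 8.1% (difference -34.1, SE 6.7, limma adjusted p = 0.0494). PSMD14 had 37.0 and 30.0% against 0.0 and 3.5% (difference -31.7, SE 6.3, limma adjusted p = 0.0492). When flank bases inside other genes were left out, 7 of 31 members fitted passed again (22.6%, background 11.4%), 5 of them the same, with PSMB5 and PSMA7 in place of PSMA1 and PSMB2.

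A few members had higher flank coverage after 1 h in both libraries, none of them past the test. PSMB10 read 0.0% in both unstressed libraries and 52.8 and 26.6% after 1 h (limma adjusted p = 0.0836), in flanks that hold PSKH1, CTRL, LCAT and SLC12A4. PSMD3 read 24.2 and 4.7% against 60.4 and 39.6% (limma adjusted p = 0.129). PSMB7 read 56.5 and 50.0% against 96.1 and 66.3% (limma adjusted p = 0.198). PSMA6 (4.7 and 33.6% against 57.8 and 22.9%) and PSMB3 (50.0 and 0.0% against 0.0 and 83.5%) had the next highest mean differences, and their groups overlapped. PSMC5 had 100.0% in both unstressed libraries and 3.8 and 55.1% after 1 h, the largest mean difference of the flanks, at an adjusted p of 0.0826 in limma.

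Where along the genes the coverage was lower was read in the 35 members with a strand in the RefSeq promoter table. Over 1 kb to each side of the gene end farthest downstream, the mean coverage was 59.4 and 60.0% without stress and 13.9 and 24.5% after 1 h. Over the same window in all 15813 genes with a strand it was 36.1 and 37.1% against 16.2 and 17.2%. Over 1 kb to each side of the start, the members had 53.0 and 58.3% against 25.7 and 29.5%, and all genes 44.8 and 50.6% against 25.6 and 27.4%. The gap between the members and all genes without stress was thus wider at the end than at the start, and after 1 h their means at the start and end lay within 8 points of those of all genes. In the 10 kb downstream they had 45.7 and 46.7% against 13.5 and 22.6%, and in the 10 kb upstream 27.3 and 24.6% against 15.6 and 20.5%. Groups lay apart by at least 10 points with the stressed values lower in 17 of 35 members at the end (all genes 24.5%), in 13 at the start (28.5%), in 18 downstream (31.5%) and in 12 upstream (24.1%). The stressed values were higher by the same rule in 0 members at the end (all genes 4.07%), 1 at the start (4.47%), 1 downstream (8.8%) and 4 upstream (10.6%).

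**Figure D2:**
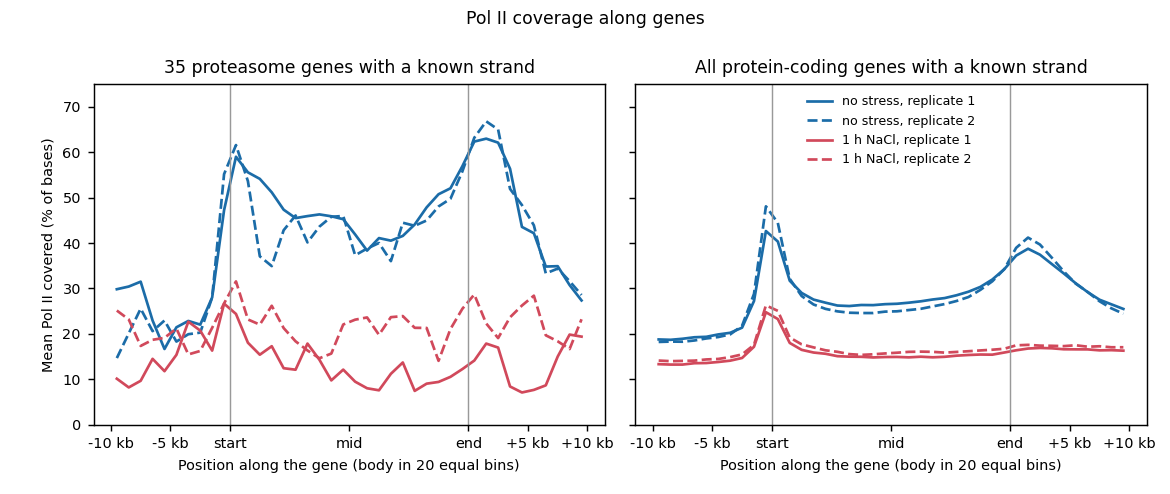
Mean percent of bases inside Pol II regions by position, from 10 kb upstream through the gene body in 20 equal bins to 10 kb downstream, for 35 proteasome genes (left) and all protein-coding genes with a strand (right). Blue lines are unstressed and red lines 1 h libraries, solid for replicate 1 and dashed for replicate 2. The unstressed members peak at the start and again just past the end, and the stressed lines lie lower from the start to beyond the end.

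Other housekeeping genes and the rest of the proteasome pathway were read from the same fit. Of 79 cytosolic ribosomal protein genes, whose median coverage was 100.0% in both unstressed libraries and 16.2 and 22.4% after 1 h, 31 of 78 fitted fell on the span (39.7%) and 0 rose. Of 83 oxidative phosphorylation genes, with medians of 62.7 and 62.9% against 0.5 and 9.6%, 19 of 76 fitted fell (25.0%) and 1 rose. Of 37 pathway genes outside the symbol rule, 10 of 35 fitted fell (28.6%) and 0 rose. The proteasome share of 30.3% lay between those of the 2 housekeeping lists. The pathway genes that fell were PSME1 and PSME4, which encode activators that cap the core in place of the 19S, the proteasome-bound deubiquitinases UCHL5 and USP14, AKIRIN2, which brings proteasomes into the nucleus, the stress-response factor NFE2L2, the segregase VCP, the shuttle RAD23B, the ubiquitin gene RPS27A and the ubiquitin-activating enzyme UBA1. PSME1 and RPS27A each went from 100.0% in both unstressed libraries to 0.0% in both stressed ones (limma adjusted p = 0.00724, with no spread of their own within a group). NFE2L1, the factor that drives proteasome genes when proteasome activity is short, had 100.0% in both unstressed libraries and 44.9 and 82.6% after 1 h, at an adjusted p of 0.231 in limma. ADRM1, a ubiquitin receptor of the cap, and the assembly chaperone PSMG3 were at 100.0% in all 4 libraries.

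Members with high coverage were also set beside other genes that started as high. Of the members, 15 had over 50% of the span covered in both unstressed libraries, and 2 of them (13.3%), PSMD4 and PSMC3IP, still had over 50% in both stressed libraries. Of the 3657 protein-coding genes that started over 50%, 17.2% did. The median difference was -65.7 points for the 15 members and -59.8 for the 3657 genes.

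**Figure D3:**
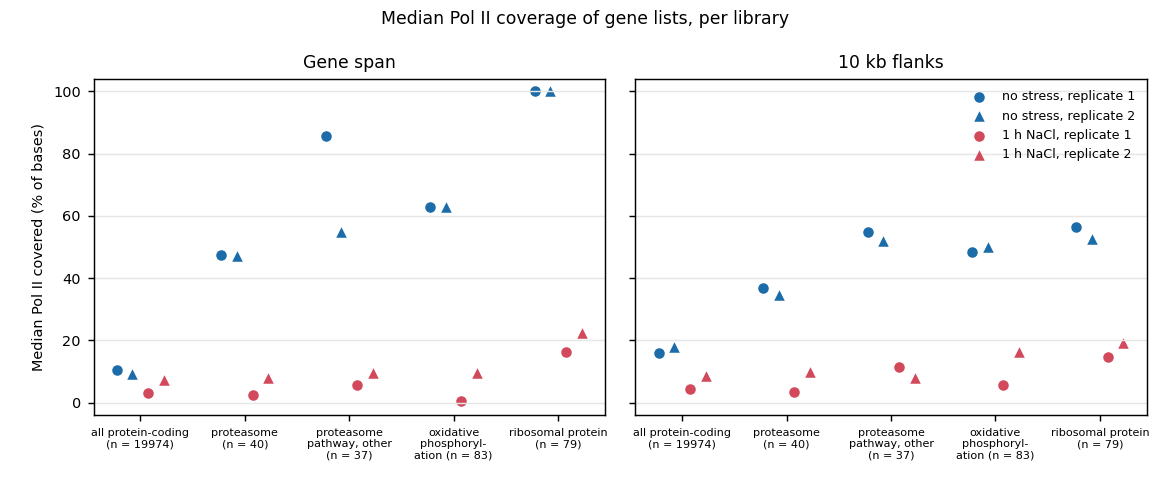
Median percent of bases inside Pol II regions over the genes of each list, for the span (left) and the 10 kb flanks (right), with 1 point per library, in blue without stress and in red after 1 h. For the span, the proteasome medians of 47.4 and 47.2% without stress lie above those of all genes and below those of the ribosomal protein genes, and all lists lie at or under 22.4% after 1 h.

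CTCF peaks within 1 kb of either end of the proteasome genes were read next, to see whether binding there persisted under the stress. Without stress, 17, 14 and 16 members had a CTCF peak in the 3 replicates. After 1 h, 14, 11 and 10 did. In all 3 unstressed lists together, 13 members had a peak (32.5%, background 17.3%), and 9 of them had one in all 3 lists after 1 h as well (22.5% of members, background 12.8%). None was lost from all 3 stressed lists (0 members, background 0.661%) and none gained (background 0.00501%). With replicate 1 left out of the 1 h group, 3 members, PSMB4, PSMC5 and PSMD8, counted as lost, since they had a peak in that stressed library alone. After 7.5 min 13 and 11 members had a peak (32.5 and 27.5%, all genes 21.1 and 13.7%), and after 30 min 9 did (22.5%, all genes 12.2%). After recovery, in the library with contradicting labels, 18 did. The shares of all genes with a peak moved too, from 36.6, 19.4 and 42.2% without stress to 25.3, 17.8 and 25.1% after 1 h and 47.5% after recovery, with list lengths that differed between libraries. When each list was cut to its 22018 strongest peaks, 3 members were kept and not 9. These were PSMA7, PSMD1 and PSMD6, the only members whose peak in unstressed replicate 2 passed the cut. No other member could therefore be kept, whatever its stressed lists held. No share of all genes is given for the cut lists or with replicate 1 left out. Whether all genes moved alike there is not shown.

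The 9 members that kept CTCF in all 6 lists were PSMA7, PSMB7, PSMC4, PSMD1, PSMD3, PSMD6, PSMD9, PSMD11 and PSMC3IP. All but PSMD9, which had no peak at 30 min, had a peak in each of the 13 CTCF lists, triptolide included. For PSMC3IP this joins 2 sites, at its start and upstream of it, neither of which had a peak in every list. Replicate 2 without stress had only the upstream one, and replicate 3 after 1 h only the one at the start. The deposited fold enrichment at PSMD6 ran from 14.8 to 36.4 over the unstressed lists and from 8.27 to 17.3 over the stressed ones. At PSMA7 it ran from 13.6 to 40.3 without stress and from 5.94 to 30.2 after 1 h, and at PSMB7 from 9.12 to 24.6 and from 5.39 to 15.9. At PSMD1 it ran from 7.24 to 31.2 and from 7.54 to 27.5. These ranges overlapped, and enrichments from lists of different lengths show no change by themselves. PSMB9 kept its peak in 2 of 3 stressed lists. Of the 40 members, 18 had no CTCF or RAD21 peak at an end in any list.

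The promoters under 4 of these sites are shown because the data place CTCF on them in most or all lists. Each is the 250 bases before the annotated start, on the strand of the gene, from the RefSeq promoter table (GRCh38.p14). PSMD11 is chr17:32444260-32444509 on the plus strand and PSMB9 is chr6:32853942-32854191 on the plus strand. In both, capitals mark a match to the core of the CTCF motif, searched on either strand as CC, any 3 bases, AG, any 2 bases and GGC. PSMD3 is chr17:39980557-39980806 and PSMC4 is chr19:39970915-39971164, both on the plus strand. In these, which hold no match to that core, capitals mark the 15 bases to each side of the median CTCF summit over 13 lists and the summit base itself.
PSMD11: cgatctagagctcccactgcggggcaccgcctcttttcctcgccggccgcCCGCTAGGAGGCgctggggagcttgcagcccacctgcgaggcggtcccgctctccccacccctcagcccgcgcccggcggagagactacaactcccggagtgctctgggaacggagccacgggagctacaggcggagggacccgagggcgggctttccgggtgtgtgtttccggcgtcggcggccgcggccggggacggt
PSMB9: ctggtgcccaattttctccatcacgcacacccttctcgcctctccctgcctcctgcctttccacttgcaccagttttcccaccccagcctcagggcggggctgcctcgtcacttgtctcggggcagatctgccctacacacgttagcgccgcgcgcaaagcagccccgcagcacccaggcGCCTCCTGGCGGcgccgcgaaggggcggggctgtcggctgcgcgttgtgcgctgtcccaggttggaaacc
PSMD3: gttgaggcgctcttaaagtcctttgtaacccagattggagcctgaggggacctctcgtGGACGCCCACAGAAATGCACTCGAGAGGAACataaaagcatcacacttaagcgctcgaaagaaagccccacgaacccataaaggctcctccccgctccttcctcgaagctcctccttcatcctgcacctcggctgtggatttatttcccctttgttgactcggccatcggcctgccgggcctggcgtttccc
PSMC4: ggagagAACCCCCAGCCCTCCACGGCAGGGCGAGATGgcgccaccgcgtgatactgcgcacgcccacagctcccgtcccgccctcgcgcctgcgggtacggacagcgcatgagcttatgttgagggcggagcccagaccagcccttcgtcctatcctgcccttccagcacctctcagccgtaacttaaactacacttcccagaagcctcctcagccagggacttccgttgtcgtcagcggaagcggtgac
The match in PSMD11 starts 200 bases before the gene, under a peak of all 13 CTCF lists, and the median distance of the summits from its middle was 10.5 bases. The match in PSMB9, 70 bases before the start, lay under peaks of 10 CTCF lists with a median distance of 11.0 bases. The core motif was found in the 250 bases of 5 of 35 members (14.3%) and of 11.0% of all 15813 genes. The other 3 were PSMA6 and PSMD5, with no CTCF peak over the match, and PSMD8, with a peak in 5 lists.

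The letters of these upstream bases were also searched, on both strands, for motifs of factors known to act on proteasome or housekeeping genes. The antioxidant response element TGACNNNGC, through which NFE2L1 and NFE2L2 act, was found in 6 of 35 members (17.1%), PSMB3, PSMB9, PSMD3, PSMD5, PSMD9 and PSMD12, and in 11.5% of all genes. The CCAAT box was found in 17 (48.6%, all genes 34.4%), the ETS motif CCGGAAG in 8 (22.9%, all genes 11.8%) and the nuclear respiratory factor 1 motif (GCGC, any base, TGCGC) in 3 (8.57%, all genes 7.66%). In PSMD8 the ETS match lies inside the CTCF core match, and in PSMD9 it lies between 2 antioxidant response elements, at 109 to 103 bases before the start. A match describes the letters only.

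**Figure D4:**
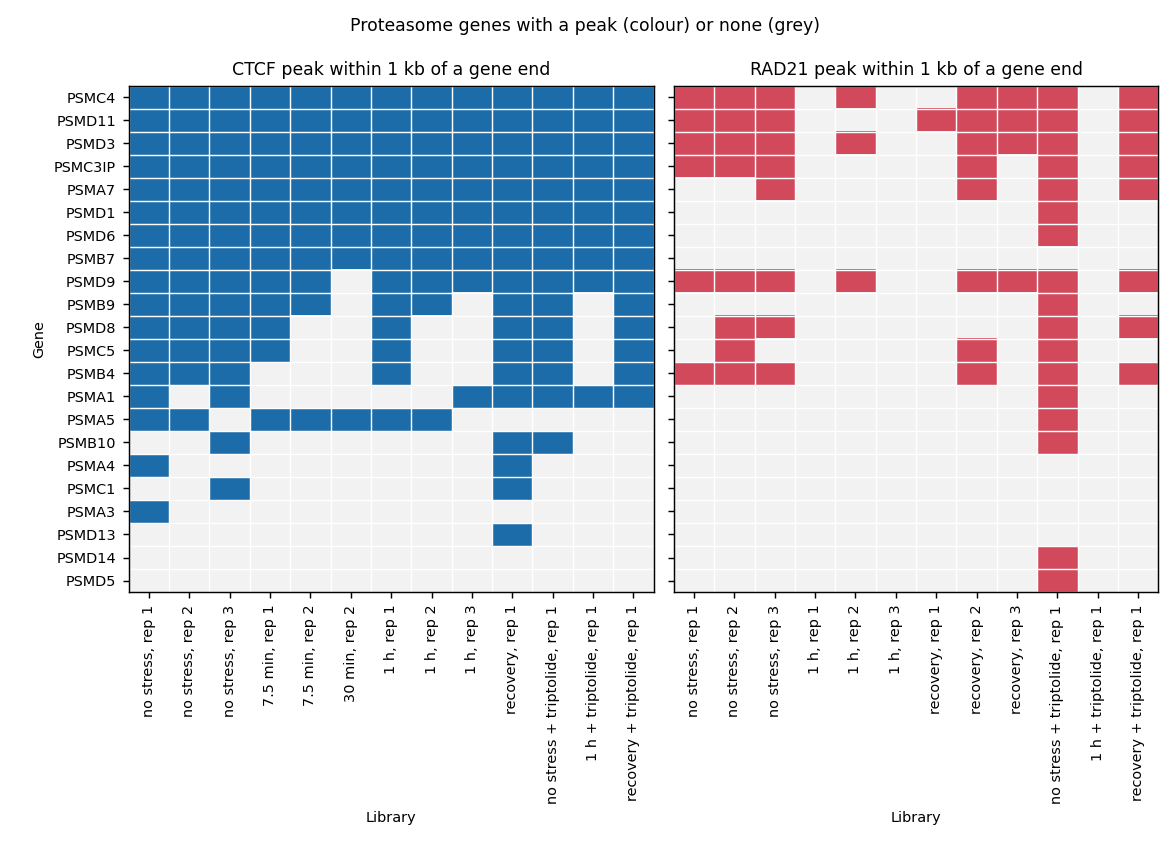
Presence (colour) or absence (grey) of a CTCF peak (left, blue) and a RAD21 peak (right, red) within 1 kb of a gene end, for the 22 members with a peak in at least 1 list (rows) and every library (columns). The upper 8 rows have CTCF in all 13 lists, while the RAD21 columns for 1 h of NaCl are empty except for PSMC4, PSMD3 and PSMD9 in replicate 2.

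RAD21 at the same gene ends was largely absent after 1 h. Without stress, 6, 8 and 8 members had a RAD21 peak in the 3 replicates, and after 1 h 0, 3 and 0 did. PSMB4, PSMC4, PSMD3, PSMD9, PSMD11 and PSMC3IP had one in all 3 unstressed lists (15.0%, background 9.39%). Of these, PSMB4, PSMD11 and PSMC3IP had none in any stressed list, so 3 members were lost (7.50%, background 3.69%), 0 were kept (background 1.87%) and 0 gained (background 0.0100%). The 3 stressed peaks, at PSMC4, PSMD3 and PSMD9, came from replicate 2 alone, and without that library 6 members were lost. The shares of all genes with a RAD21 peak were 16.2, 18.5 and 13.5% without stress and 2.34, 8.81 and 3.05% after 1 h, so the members moved with the whole lists. In lists cut to their 4761 strongest peaks, 0 members counted as lost, but none could have. No member peak of unstressed replicate 3 passed the cut. The highest, at PSMC4, stood at percentile 74.7 by fold enrichment in a list of 24931 peaks. No share of all genes is given for the cut lists or without replicate 2 of the stressed group.

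The RAD21 peaks of the members without stress, 8 in each replicate, all overlapped a CTCF peak of an unstressed list. At PSMD11 the 2 ends of the gene could be told apart, a feature picked out after its values were seen. At the downstream end, CTCF had a peak in 3 of 3 unstressed lists, with deposited fold enrichments of 26.4, 7.13 and 14.9, and in 0 of 3 stressed lists. RAD21 lay at the same place, with enrichments of 11.0, 7.46 and 7.81 without stress and no peak in any stressed list. At the start, CTCF was present in all 3 unstressed and all 3 stressed lists and RAD21 in none of them. The end site had CTCF in 1 of 2 lists at 7.5 min, none at 30 min, 1 of 1 after recovery and, with triptolide, a peak without stress and after recovery but none after 1 h. Among 80 member ends taken singly this was the 1 end that lost CTCF (1.25%, background 0.340%), while 10 ends kept it (12.5%, background 6.57%) and 0 gained it (background 0.00250%). RAD21 was lost at 3 ends (3.75%, background 1.93%) and kept or gained at 0 (background 0.949 and 0.00501%). PSMC3IP also had 2 CTCF sites, 1 at its start and 1 upstream, and RAD21 lay at the upstream one, with summits 751, 737 and 758 bases from the start.

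After 1 h of recovery, RAD21 peaks at the members' ends came back in part, to an extent that differed between replicates. After recovery 1, 8 and 4 members had a peak (2.5, 20 and 10%, all genes 3.84, 21.5 and 4.31%). Counted within libraries of the same replicate number, and for replicate 3 within the second set, 1 of 6 members that had lost a peak regained it in replicate 1, in replicate 2 it was 4 of 5, and in replicate 3, whose recovery library has contradicting labels, it was 4 of 8. Over all genes 15.6, 76.2 and 19.4% regained theirs. PSMD11 regained its peak in all 3 replicates, at the same downstream end, with enrichments of 4.64, 9.95 and 3.66. PSMB4, PSMC3IP and PSMC5 regained theirs in replicate 2, and PSMC4, PSMD3 and PSMD9 in replicate 3. The recovery lists held 4397, 20400 and 6492 peaks, and the replicate with the longest list had the largest share of members and of all genes regained. In lists cut to 4397 peaks, 1 member regained a peak out of 2 lost, summed over the replicates, against 9 of 19 in the full lists. The cut also left few member peaks in the unstressed lists that could be lost. No share of all genes is given for the cut lists.

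**Figure D5:**
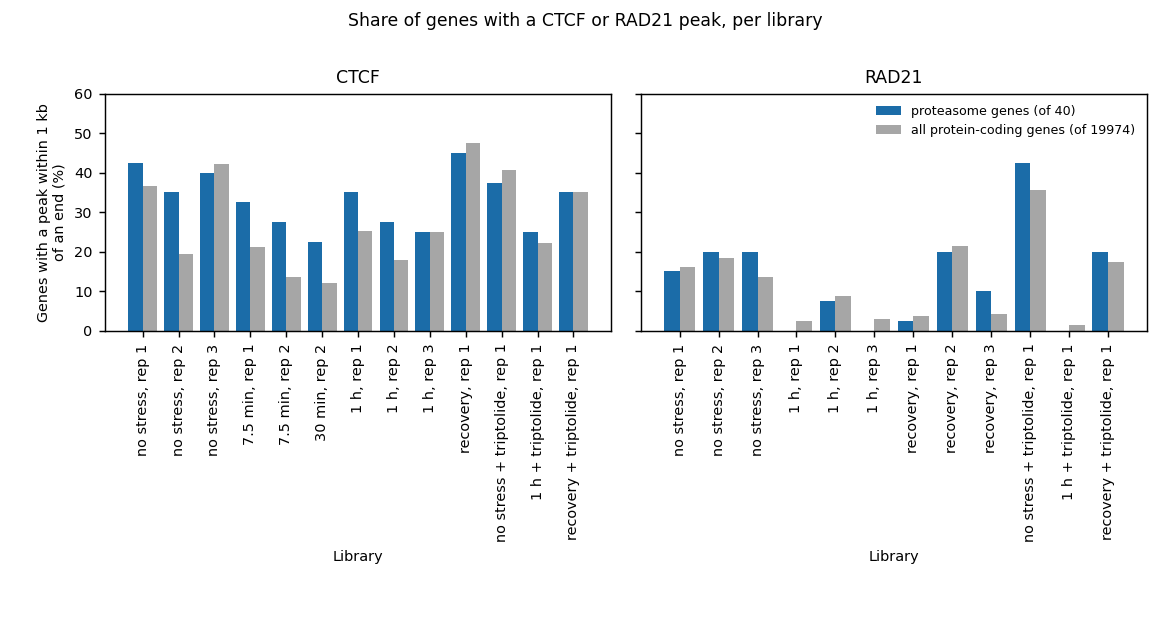
Percent of genes with a CTCF (left) or RAD21 (right) peak within 1 kb of an end in each library, in blue for the 40 proteasome genes and in grey for 19974 protein-coding genes. RAD21 bars drop from 15.0 to 20.0% of the members without stress to between 0 and 7.5% after 1 h, and the bar for triptolide without stress is the highest, at 42.5%. The grey RAD21 bar of that library, at 35.6%, is the highest of the grey ones as well.

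The triptolide libraries, 1 per condition and factor and so without a test, were read beside these, by their titles. With triptolide, 17 members had a RAD21 peak without stress, 0 after 1 h and 8 after recovery (42.5, 0 and 20%, all genes 35.6, 1.33 and 17.3%). CTCF peaks were at 15 members without stress, 10 after 1 h and 14 after recovery (37.5, 25 and 35%, all genes 40.7, 22.3 and 35.2%). Of the 17 with RAD21, PSMA1, PSMA5, PSMB9, PSMB10, PSMD1, PSMD5, PSMD6 and PSMD14 had no RAD21 peak in any unstressed library without triptolide, which is 8 of the 31 members without one, beside 17.7% of 15229 genes without one. That list was also the longest of RAD21, with 40969 peaks against 13762 to 24931 in the unstressed lists without the drug. PSMD5 and PSMD14 had this RAD21 peak with no CTCF peak in any list. Of 21 RAD21 peaks at member ends in this list, 16 overlapped a CTCF peak of an unstressed list. At the 9 members that already had RAD21, the highest enrichment in this list was 21.9 at PSMC3IP, 21.8 at PSMD11, 21.7 at PSMC4, 18.2 at PSMD9, 18.0 at PSMB4, 13.6 at PSMD3, 13.1 at PSMA7, 12.2 at PSMD8 and 3.57 at PSMC5. At the other 8 it ran from 1.73 at PSMA1 to 5.09 at PSMB9, a range that holds the value of PSMC5. PSMB7, which had CTCF in all 13 lists, had RAD21 in none.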

How the data were processed

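Peak lists of 29 T47D ChIP-seq libraries (13 CTCF, 12 RAD21, 4 Pol II), out of 41 samples, were used. The other samples carried no list and were not analysed here. Per the submitters' processing notes, cutadapt, Bowtie2 2.2.6, MACS2 and hg38 were used, and for the first submission also DiffBind 2.4.6, DESeq2 and HOMER. The role of each tool, the calling threshold and the control: not given in the sources used here. Each list comes from 1 library. The deposited values of each peak are a fold enrichment (a ratio to background), -log10 p, -log10 q and an integer score. They belong to the authors' caller and served only to describe, rank or filter peaks within a list.

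Groups follow the sample titles. In 6 of 12 libraries of the second set the tag on triptolide contradicts the title, and the replicate tags of Pol II replicate 2 and of the CTCF 30 min library differ from their titles. Replicate numbers were not taken as pairs in the Pol II fit, since deviations of same-numbered Pol II libraries correlated at r = 0.0432 over 13841 genes.

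Coverage of spans and 10 kb flanks was computed with Python 3.11.15, numpy 2.4.6 and pandas 2.3.3, and fitted with limma 3.58.1 (trend, R 4.3.3) over genes with a mean of at least 5%, Benjamini-Hochberg threshold 0.05, 2 against 2 libraries. An exact permutation test of that size cannot go below p = 0.333. RAD21 recovery was followed, without a test, within libraries of the same number (replicate 3 is the second set, numbered here). CTCF and RAD21 peaks overlapping 1 kb to either side of a gene end by 1 bp were counted without a test. A member was lost if it had a peak in every unstressed and no 1 h list, gained for the opposite, and kept if it had one in all. Gene spans, strands and promoters come from RefSeq GRCh38.p14, and 35 of 40 members matched the promoter table. Scripts were tested on simulated data. Values are printed for members past the limma threshold, the 5 largest differences each way, the catalytic and inducible beta subunits, and members whose peaks were lost, gained or kept. The members, gene lists and tests were chosen with earlier results of these data known. The comparison of single gene ends was added after seeing the data.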

Additional observations from a re-analysis of the deposited data

Results flagged for a closer look

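In unstressed cells with triptolide, a library outside the main comparisons, 17 members had a RAD21 peak at a gene end (42.5%, all genes 35.6%). The unstressed libraries without the drug had 6, 8 and 8 (15, 20 and 20%, all genes 16.2, 18.5 and 13.5%). The share was thus higher over all genes as well as over the members. The triptolide count comes from 1 library, with the longest RAD21 list and a tag that, against its title, names no drug. What part the list length had in this count was not tested.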

How the results depend on the processing

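Pol II is known from 2 libraries a group, without depth, and the test on it depended on most choices tried. The 10 members lower over the span (30.3% beside 14.2% of all genes) became 5 on the logit scale (15.2% beside 9.33%), 4 with regions of -log10 q of at least 1.3 (of 21 fitted, beside 18.9%), and 0 to 7 with 1 library left out (6 without replicate 2 of 1 h). With the replicate block it was 0 members, and 0 of all genes, with 12 members (36.4% beside 20.9%) lower at an unadjusted p under 0.05. The 7 members lower over the flanks (20.0% beside 12.7%) became 1 with libraries centred on the median (2.86% beside 1.91%). On the logit scale, with no filter on low coverage and with the replicate block, 0 members and 0 of all genes passed. The number of members higher was 0 in every one of these fits. The median over the fitted members moved from -35.0 to -18.4 (span) and from -27.2 to -6.6 (flanks) when centred, to -20.5 with no filter (span) and to -43.6 for the downstream flank alone, and it lay between -26.5 and -39.0 (span) with 1 library left out. Centring moved the median of all fitted genes from -12.18 to 4.38 (span) and from -13.68 to 6.87 (flanks). With regions of -log10 q of at least 1.3, PSMC4 turned to 5.3 over the span and 1.9 over the flanks, and PSMD4 to -91.8 over the flanks (limma adjusted p = 0.00329). PSMD4 turned to 12.9 over the span when centred, and its flank difference lay between -3.9 and 8.2 with 1 library left out.

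For peaks, equal list lengths left 3 members that kept CTCF, 0 that lost RAD21, and 1 regained of 2 lost. Only those 3 members passed the CTCF cut in unstressed replicate 2, so no other could count as kept. No member passed the RAD21 cut in unstressed replicate 3, so none could count as lost. CTCF-lost members were 0 to 3 and RAD21-lost members 3 to 6 with 1 library left out, and with 1 replicate left out 5 to 8 were regained of 11 to 14 lost. No shares of all genes are given beside these counts. With each gene end on its own, 1 member lost CTCF. The causes were not tested.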
